A study of Oncorhynchus mykiss with 14 samples.

Results

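The 150 most stable transcripts of the rainbow trout (Oncorhynchus mykiss) egg were described, meaning the genes whose read counts varied least over 14 egg libraries from 7 clutches and 2 treatments. Levels are given in CPM, the count of a gene divided by all gene counts of its library and multiplied by 1000000. Of 64494 annotated genes, 9148 had a mean between 10 and 300 CPM, called the window here, and the 150 window genes with the lowest coefficient of variation (CV, the standard deviation over the 14 libraries as a percentage of the mean) formed the set. All 14 libraries chose these genes, so their CV, levels and differences between groups are given as descriptions and carry no independent test. Of the 150 genes, 2 had a name in the sources used here and the others are given by Ensembl identifier, with no function.

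The study asked which maternal transcripts go with the competence of eggs for gynogenesis, the development of an embryo from maternal chromosomes only. Eggs of each of 7 females, 5 years old and of the Rutki strain, were divided in 2 portions that share a replicate number here called the clutch. The study excluded the eggs of its female 5 for poor libraries, so not all clutch numbers here are the study's female numbers. Going by the uniquely mapped reads that the study lists per sample, clutches 1 to 4 are its females of those numbers. Clutches 5, 6 and 7 are its females 6, 7 and 8. The control portion was inseminated with non-irradiated rainbow trout sperm, and the gynogenetic portion was activated with UV-irradiated sperm of European grayling, another salmonid. All 14 samples carried the genotype label XX, Doubled Haploids, and each library came from the polyA RNA of a pool of 2 to 3 eggs. The study's methods give the time of collection as right after treatment. Whether the treatment of the sequenced gynogenetic eggs included the pressure shock that doubles the chromosomes was not given in the sources used here. UV irradiation, sperm species and male cannot be told apart between the groups. In pooled eggs, fewer copies per egg and a different RNA content per egg also cannot be told apart.

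A fish egg carries its messenger RNA from the mother, laid down during oogenesis, and the embryo relies on it until its own genome is activated several cleavages later. Transcripts are added, stored, deadenylated and degraded at different rates during egg maturation and ageing, so levels can differ between mothers. Genes with a steady level in a tissue are the usual reference for scaling quantitative PCR.

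The libraries held 34535902 to 67557305 gene counts. In each, 99.7 to 99.8% of the counts above 0 were even, with 0 to 5 genes at a count of 1 against 774 to 1727 genes at a count of 2. Counts therefore came in steps of 2, and the error of counting was computed both for single counts and for such steps. The reason for the steps was not tested. Of 25 marker genes of eggs, follicle cells, blood and sperm, only ccnb1 (cyclin B1, a mitotic and meiotic cyclin stored in eggs) had an identifier, with a mean of 2253 CPM and a CV of 14.7%, so the label egg could not be checked further.

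The stable genes had CVs of 5.92 to 12.7% with a median of 11.4%, and 34 of them were below 10%. The median CV of the window was 32.6%. From the lowest to the highest of the 14 libraries, the stable genes differed 1.22-fold to 1.71-fold (median 1.47-fold), against a median of 3.11-fold in the window. All 14 values lay within 20% of the gene's mean for 57 stable genes, and for 61 genes of the whole window. Counting error alone would give the stable genes a median CV of 1.08%, or 1.52% with counts in steps of 2. The measured CV was 2.21 to 10.96 times the latter (median 6.90 times). The ratio was lowest, at 2.21, for the gene of lowest level, and every stable gene had at least 592 counts in every library.

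Stable genes were mostly genes of high level in the window. Their means ran from 15.2 to 299.5 CPM with a median of 166.6 CPM, against a median of 38.0 CPM in the window. The set held 4 of 3817 genes between 10 and 30 CPM (0.105%), 35 of 3406 between 30 and 100 CPM (1.03%), 51 of 1366 between 100 and 200 CPM (3.73%) and 60 of 559 between 200 and 300 CPM (10.7%). The upper limit of the window left out genes of like steadiness. Of 658 genes above 300 CPM, 84 (12.8%) had a CV at or below that of the last gene in the set, and none of the 8725 genes between 1 and 10 CPM did, the lowest CV there being 13.5%.

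**Figure D1:**
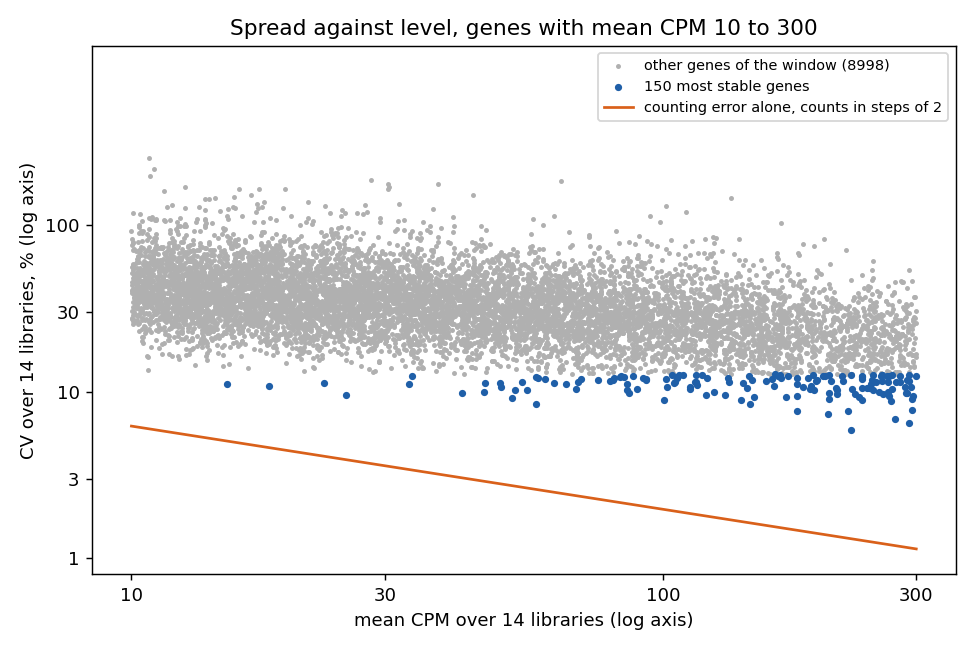
CV over the 14 libraries (%, log axis) against mean CPM (log axis) for the 150 stable genes (blue) and the other 8998 genes of the window (grey). The line is the CV that counting error alone gives with counts in steps of 2. The stable genes form the lower edge of the cloud, at 5.92 to 12.7%, all above the line.

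The steadiest gene was ENSOMYG00000041962, with a mean of 226 CPM and a CV of 5.92%. In control eggs it had 203 CPM at the lowest, 223 at the median and 248 at the highest, and in gynogenetic eggs 217, 228 and 238 CPM. The 2 groups overlapped, and the gynogenetic libraries lay inside the range of the controls. ENSOMYG00000033039 (CV 6.51%) ranged from 262 to 319 CPM in control eggs with a median of 298, and from 274 to 313 CPM in gynogenetic eggs with a median of 288. ENSOMYG00000027418 (CV 6.84%) ranged from 251 to 290.1 CPM with a median of 273.5 CPM in control eggs and from 237 to 310 CPM with a median of 274 CPM in gynogenetic eggs. For these 3 genes no library stood more than 20% from the mean, and the 2 groups overlapped. Clutch 5 held the lowest library of each group for ENSOMYG00000041962. Between clutches lay 66.8% of its sum of squares, where clutches hold 46.2% of the degrees of freedom. By edgeR's quasi-likelihood test among the clutches its adjusted p was 0.921.

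The fourth gene, ENSOMYG00000026111 (CV 7.40%), ranged from 196 to 237 CPM in control eggs (median 209.7) and from 179 to 219 CPM in gynogenetic eggs (median 199.6). It was lower in the gynogenetic library in 6 of 7 clutches, with a ratio of group means of 0.947, and both libraries of clutch 4 were the highest of their group. ENSOMYG00000017079 (CV 7.62%) ranged from 160.3 to 192 CPM in control eggs (median 177) and from 156 to 201 CPM in gynogenetic eggs (median 184). ENSOMYG00000045020 (CV 7.67%) ranged from 183 to 241 CPM in control eggs (median 219.5) and from 213 to 245 CPM in gynogenetic eggs (median 226). Its spread was wider in control eggs, with a CV of 9.76% against 4.75%, and control 2 was its lowest library.

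ENSOMYG00000001654 (CV 7.77%) ranged from 267.5 to 343 CPM in control eggs (median 281) and from 273 to 324 CPM in gynogenetic eggs (median 300.5). ENSOMYG00000021355 (CV 8.46%) ranged from 132 to 164 CPM in control eggs (median 152.7) and from 125 to 155 CPM in gynogenetic eggs (median 150.4). ENSOMYG00000063473 (CV 8.86%) ranged from 234 to 284 CPM in control eggs (median 247) and from 254 to 314 CPM in gynogenetic eggs (median 279). The groups overlapped for each of these. ENSOMYG00000001654 and ENSOMYG00000063473 were higher in the gynogenetic library in 5 of 7 clutches, with ratios of group means of 1.02 and 1.103, and ENSOMYG00000021355 was lower in 6 of 7, with a ratio of 0.961. The ratio of ENSOMYG00000001654 was 0.993 when libraries were scaled by the trimmed mean of M-values (TMM), which centres the bulk of genes between libraries.

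**Figure D2:**
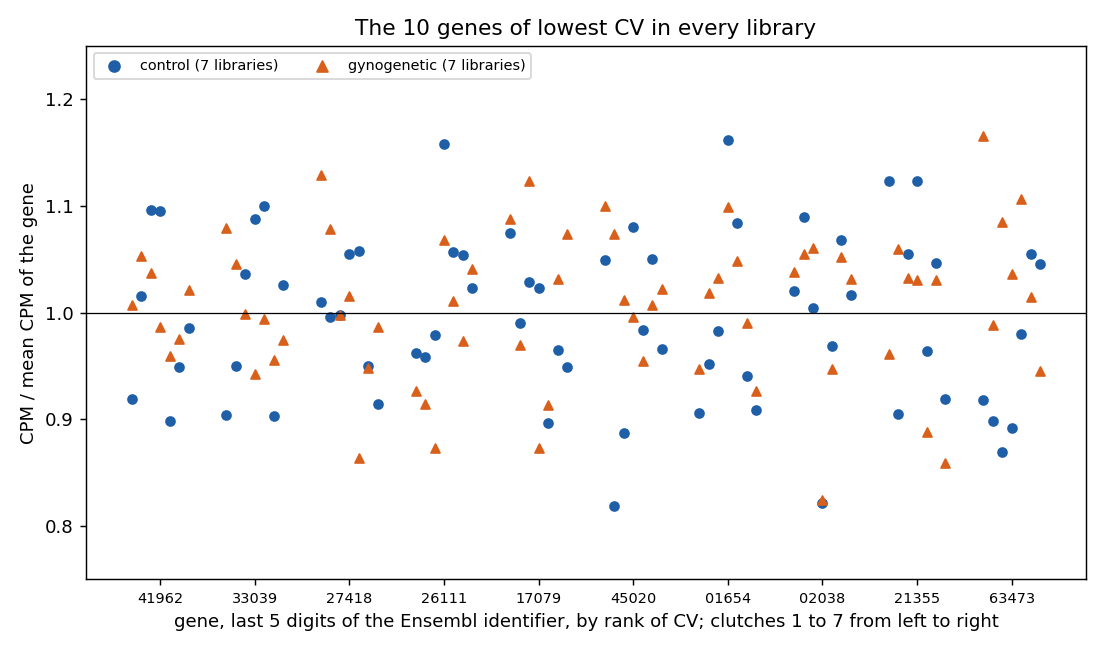
CPM divided by the gene's mean CPM, for the 10 genes of lowest CV in all 14 libraries, with clutches 1 to 7 from left to right within each gene, control as circles and gynogenetic as triangles. Symbols of both groups are mixed within each gene, and both symbols of clutch 4 are the lowest for ENSOMYG00000002038.

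ENSOMYG00000002038, of rank 8 with a mean of 57.6 CPM and a CV of 8.41%, varied almost wholly by clutch. Clutch 4 had 47.4 CPM in control eggs and 47.5 CPM in gynogenetic eggs, and the 12 libraries of the other clutches lay between 54.6 and 62.8 CPM. Of the sum of squares of its log2(CPM + 1) values, 97.4% lay between clutches, 0.0301% between treatments and 2.56% in the remainder. Without clutch 4 its CV was 4.00%.

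At the threshold, ENSOMYG00000036541, ENSOMYG00000028976 and ENSOMYG00000009649 closed the set with CVs of 12.68%, 12.70% and 12.71%. ENSOMYG00000032514, ENSOMYG00000033750 and ENSOMYG00000040711 were the first left out, with 12.71%, 12.71% and 12.75%. The CV thus had no step at the threshold. ENSOMYG00000009649 ranged from 135.5 to 183 CPM in control eggs (median 165) and from 112 to 187 CPM in gynogenetic eggs (median 169.9), with gynogenetic 5 well below every other library. The gene of lowest level, ENSOMYG00000008313, had a mean of 15.2 CPM and a CV of 11.2%, with 13.7 to 18.2 CPM in control eggs and 13.1 to 18.1 CPM in gynogenetic eggs.

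The 2 genes with a name belong to splicing and to protein degradation. ENSOMYG00000005733, sf3a1, encodes a subunit of splicing factor 3a, part of the U2 small nuclear ribonucleoprotein that recognises the branch point of introns. It had a mean of 189.7 CPM and a CV of 10.8%. Control eggs ranged from 145 to 215 CPM (median 194) and gynogenetic eggs from 159 to 224 CPM (median 184), so the groups overlapped. Its lowest library was control 4 at 145 CPM, while the gynogenetic library of the same clutch had 184 CPM.

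ENSOMYG00000029481, fbxw11a, encodes an F-box protein, the part of an SCF ubiquitin ligase that binds phosphorylated substrates such as beta-catenin in mammals. It had a mean of 280.1 CPM and a CV of 12.4%. Control eggs ranged from 229 to 319 CPM (median 309) and gynogenetic eggs from 228 to 304 CPM (median 296). Clutch 1 was low in both libraries, with 229 and 232 CPM, and clutches 4 to 7 lay between 287 and 319 CPM in both groups. Clutch 2 was split, with 311 CPM in control eggs and 236 CPM in gynogenetic eggs. Clutch 3 had 260 CPM in control eggs and 228 CPM in gynogenetic eggs, the lowest of all libraries. Of the sum of squares, 76.4% lay between clutches.

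These 2 genes came from lists that the study had itself drawn from these samples, of genes whose level correlated with offspring survival. The study listed fbxw11a for survival after gynogenetic activation and sf3a1 for survival in the control group. Both are therefore no independent sample of functions. The lists held 274 genes, 100 of them in the window, and 2 of those 100 (2%) were stable genes, against 1.64% of the window. Sorted by product name, splicing and mRNA processing had 1 stable gene of 2 (sf3a1, and not srsf1a with a CV of 21.5%), and proteasome and ubiquitin had 1 of 2 (fbxw11a, and not ube2v1 with a CV of 37.6%). No stable gene was found among 3 genes sorted to mRNA decay and translational control, 5 mitochondrial proteins, 7 genes of transcription and chromatin, 1 of vesicle traffic, 8 kinases and phosphatases, 1 of nuclear transport and 4 of cell cycle and cytoskeleton. These lists overlap. The gene tcea1 was counted in the first of them and in transcription and chromatin, and pgam5 among mitochondrial proteins and among kinases and phosphatases. The lists for cytosolic ribosomal proteins and for DNA replication and repair had 0 named genes in the window.

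Among the genes commonly used to scale quantitative PCR, ENSOMYG00000005322, alas1, an enzyme of heme synthesis, was named and in the window and was not a stable gene. It had a mean of 194 CPM and a CV of 20.4%, at rank 1287. Its name came from the study's survival lists, so it had been picked for a level that correlated with survival in these samples. It is therefore no independent reading of how steady reference genes are in eggs.

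**Figure D3:**
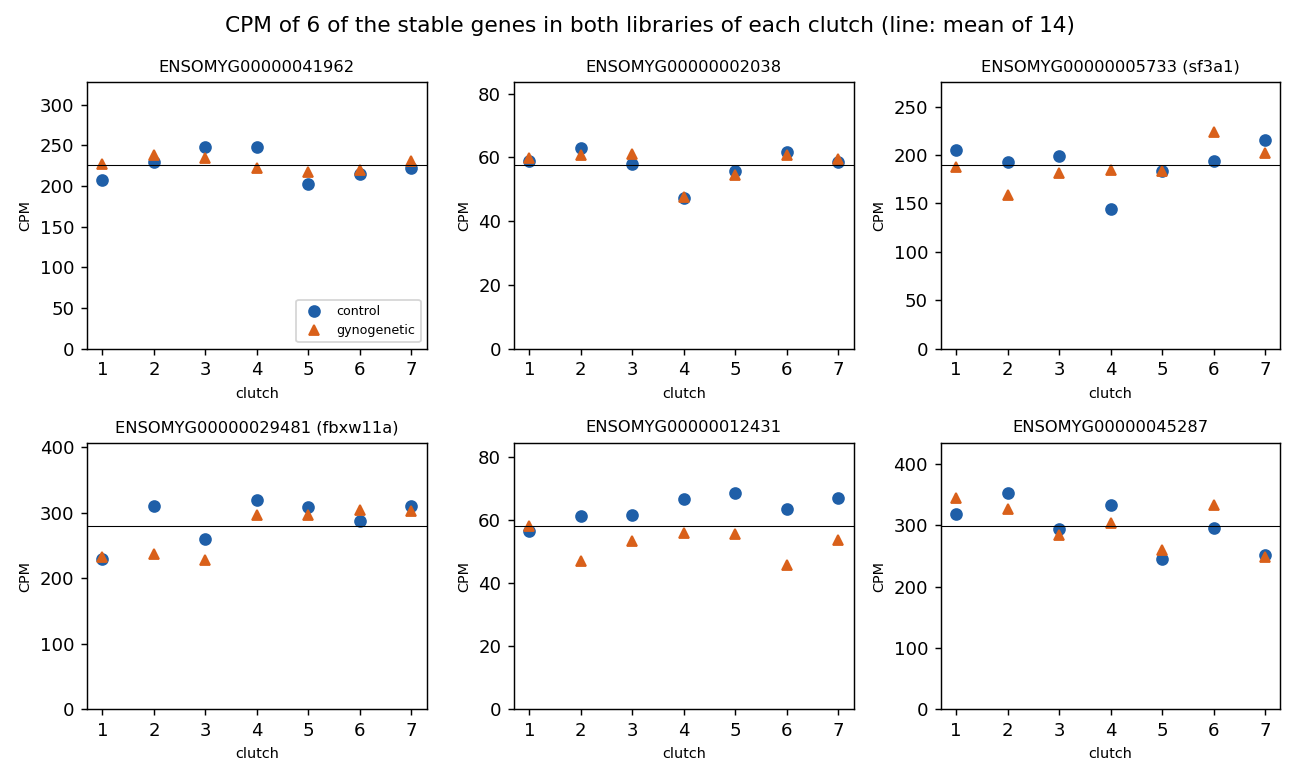
CPM of 6 stable genes in the control (circles) and gynogenetic (triangles) library of each clutch, with the mean of the 14 libraries as a line. The 2 symbols of clutch 4 fall together at 47.4 and 47.5 CPM for ENSOMYG00000002038, and the triangles lie below the circles in 6 of 7 clutches for ENSOMYG00000012431.

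Between treatments, the ratio of the gynogenetic to the control mean ran from 0.830 to 1.14 over the stable genes, with a median of 1.001. The gynogenetic mean was the higher one for 76 genes (50.7%) and the lower one for 74, while 55.0% of window genes had the higher mean in gynogenetic eggs. This split depended on the scaling. With TMM, which the edgeR tests used, 54 stable genes (36%) were higher and 96 lower, against 49.5% of window genes higher, and with DESeq2 size factors 55 (36.7%) were higher and 95 lower, against 50.5%. The median log2 ratio of the stable genes was 0.0015 on CPM, -0.03 with TMM and -0.02 with DESeq2 size factors. Of 26 stable genes named here, 8 had a ratio above 1 on CPM, between 1.003 and 1.02, and below 1 with TMM, between 0.982 and 0.9995. In no stable gene did the 2 groups fail to overlap, and in the window 74 genes (0.809%) did, all lower in gynogenetic eggs. The edgeR quasi-likelihood test over all 30919 detected genes called 57 genes (0.184%) at an adjusted p below 0.05, all lower in gynogenetic eggs. It called 0 stable genes, with 1 at an unadjusted p below 0.05, against 1886 of the 30919 detected genes. With the clutch as a block the test called 1557 genes (5.04%), of which 396 were higher (1.28%) and 1161 lower (3.75%). Again 0 stable genes were called, with 2 at an unadjusted p below 0.05, against 4511 of the detected genes. The Wald test of DESeq2 called 245 genes (0.792%), 32 higher (0.103%) and 213 lower (0.689%), and 0 stable genes. By that test 1 stable gene had an unadjusted p below 0.05, against 1758 of the detected genes. With 1 clutch left out, edgeR without the block called 4 genes (without clutch 2) to 51 (without clutch 7), at most 27 without any of clutches 1 to 6, and 0 stable genes each time. Since the choice by low CV over all libraries leaves little room for a difference between treatments, these counts of 0 are part of the choice.

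The stable gene with the lowest p between treatments was ENSOMYG00000012431, with 56.7 to 68.7 CPM in control eggs (median 63.7) and 45.9 to 58.3 CPM in gynogenetic eggs (median 53.8). It was lower in the gynogenetic library in 6 of 7 clutches, clutch 1 being the exception, and the ranges overlapped only through the 2 libraries of clutch 1. The log2 fold change was -0.30 with an adjusted p of 0.790 by edgeR's quasi-likelihood test, and 0.252 with the clutch as a block. ENSOMYG00000021726 had 162 to 198 CPM in control eggs (median 181) and 135.5 to 180.0 CPM in gynogenetic eggs (median 145). By edgeR its log2 fold change was -0.27 with an adjusted p of 0.893 without the block, and -0.28 with 0.257 with the block. Both genes thus remained above the threshold in either fit.

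ENSOMYG00000009852 and ENSOMYG00000030640 were lower in the gynogenetic library of all 7 clutches. ENSOMYG00000009852 had 232 to 296 CPM in control eggs (median 274) and 205 to 267 CPM in gynogenetic eggs (median 215), and ENSOMYG00000030640 had 295 to 340 CPM (median 308) against 249.9 to 314 CPM (median 272). By edgeR with the block their log2 fold changes were -0.24 and -0.21, with adjusted p of 0.351 and 0.479. Without the block these were -0.24 and -0.20, with adjusted p of 0.970 and 0.99999. ENSOMYG00000016124, the fifth by p, had 114 to 142 CPM in control eggs and 86.3 to 129 CPM in gynogenetic eggs, with a log2 fold change of -0.22 without the block. In all, 4 stable genes (2.67%) were lower and 2 (1.33%) were higher in gynogenetic eggs in all 7 clutches, against 7.62% and 3.13% of window genes. With TMM, 4 were lower and 1 was higher. The pair that were higher, named here after their values were seen, were ENSOMYG00000017033 with a ratio of means of 1.09 and ENSOMYG00000010202 with 1.12. By edgeR with the block their adjusted p were 0.872 and 0.836. With TMM only ENSOMYG00000010202 remained higher in all 7 clutches.

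Between clutches the stable genes still varied, going by the split of their spread. The tests among clutches, given below, called 0 of them by edgeR (45% of all genes) and 13 by DESeq2 (46.3%). Over the set, a median of 59.8% of the sum of squares of log2(CPM + 1) lay between clutches, 5.84% between treatments and 29.5% in the remainder. The means were 58.7%, 9.56% and 31.8%. Shares of the degrees of freedom were 46.2%, 7.69% and 46.2%, which are to be set beside the means and not the medians. In the window the medians were 76.5%, 3.54% and 14.7%, and the means 73.0%, 8.88% and 18.2%. The clutch share ran from 8.23 to 97.4% over the stable genes, and it was above its share of the degrees of freedom in 112 of them (74.7%), against 89.5% of window genes. The highest clutch mean was 1.09-fold to 1.49-fold the lowest (median 1.27-fold), with a window median of 2.26-fold. Within a clutch, the 2 libraries of a stable gene differed by a median of 0.12 on the log2 scale, against 0.29 in the window. The choice by low total spread acts on the spread between clutches too. The differences from the window can therefore come from the choice itself.

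The 2 libraries of a clutch deviated together in the stable genes, less closely than in the window. Across the 150 genes, the correlation of the deviations from the group means between the control and gynogenetic library of a clutch was 0.0903 to 0.525 (median 0.341), and for 6 of 7 clutches it was the highest with the own number. Clutch 6 was the exception, at 0.0903. Across the 9148 window genes it was 0.637 to 0.868 (median 0.779). These values run over genes of the same libraries, which are not independent replicates. The choice by low total spread also removes large clutch deviations, so the lower correlation can come from the choice itself.

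Each stable gene has a highest and a lowest clutch mean, 300 in all. Clutch 4 held 53 of these (17.7%, against 20.5% in the window), the most of any clutch, and clutch 6 the fewest with 31 (10.3%). Clutch 1 was the highest for 37 genes and clutch 5 the lowest for 30. Among single libraries, control 4 lay more than 20% from the mean for 24 stable genes, and the other 13 libraries for 4 to 10 genes each. Control 4 also spread widely over the window, with quartiles of the log2 deviation from the gene's mean at -0.55 and 0.30.

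By edgeR's quasi-likelihood test among the 7 clutches, with treatment as a covariate, 13926 of 30919 genes (45%) and 0 stable genes passed. At an unadjusted p below 0.05 there were 0 stable genes, against 15665 of all tested genes. The likelihood ratio test of DESeq2 called 14304 genes (46.3%) and 13 stable genes (8.67%). It had 21 stable genes at an unadjusted p below 0.05, against 15612 of all tested genes. On total counts without TMM, edgeR called 13532 genes (43.8%) and 0 stable genes. In that fit 0 stable genes had an unadjusted p below 0.05, against 15455 of all tested genes. The choice by low CV over all libraries leaves little room for a difference between clutches, so these counts are in part set by the choice. Both tests also draw the spread of a gene toward that of genes of like level. Apart from the fit without TMM, they scale libraries otherwise than CPM, on which the set was chosen. Beyond that fit, the parts of the draw and of the scaling in these counts were not tested. A count of 0 does not show that the clutches were alike. ENSOMYG00000002038 had an adjusted p of 0.591 by edgeR and 0.123 by DESeq2, although on CPM both libraries of clutch 4 lay below the other 12.

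The 5 stable genes with the lowest p among clutches by edgeR also had the lowest p by DESeq2. ENSOMYG00000039146 (mean 258 CPM) was lowest in clutch 3, with 221 and 193 CPM, and highest in clutch 2, with 304 and 279 CPM, at an adjusted p of 0.103 by edgeR and 0.00663 by DESeq2. ENSOMYG00000045287, the stable gene of highest level with a mean of 299.5 CPM, had 252 and 249 CPM in clutch 7 and 353 and 326 CPM in clutch 2, at 0.107 by edgeR and 0.0109 by DESeq2. Clutch 5 was about as low for ENSOMYG00000045287, with 245 and 259 CPM. In both genes the lowest clutch by mean was low in both treatments. By edgeR ENSOMYG00000045287 passed without clutch 4 (adjusted p 0.0478, where 38.4% of all genes passed) and without clutch 6 (0.0480, where 46.4% passed).

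ENSOMYG00000027108 was lowest in clutch 4 (214 and 242 CPM) and highest in clutch 1 (342 and 338 CPM), the widest ratio of clutch means in the set at 1.49-fold. ENSOMYG00000041140 was highest in clutch 1 (305 and 266 CPM) and lowest in clutch 5 (189 and 214 CPM). ENSOMYG00000046565 was lowest in clutch 3, with 161 and 172 CPM, and highest in clutch 7, with 234 and 256 CPM. The low clutch thus differed among these genes, while clutch 1 was the highest for both ENSOMYG00000027108 and ENSOMYG00000041140. The adjusted p by DESeq2 was 0.00998, 0.00665 and 0.0158 in that order, and by edgeR 0.156, 0.124 and 0.170, all above the threshold.

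As a sum, the stable genes made up 2.37 to 2.63% of the gene counts, from 23732 CPM in gynogenetic 5 to 26278 CPM in gynogenetic 1, with a CV of 2.58% over the 14 libraries. The median deviation of a stable gene from its mean was between -0.07 (gynogenetic 5) and 0.07 (gynogenetic 1) on the log2 scale. The window went the other way in these libraries, with medians of 0.06 and -0.14. Scaling by TMM widened the range of the library medians of the stable genes from 0.14 to 0.41 on the log2 scale, and DESeq2 size factors widened it to 0.46. The window range was 0.20, 0.21 and 0.23 with the 3 scalings. The CV of the 150 genes had a median of 13.6% with TMM and 14.02% with DESeq2 size factors, and 93 and 82 of them remained among the 150 lowest, 81 with both. The steadiness of the set is therefore relative to the total count, and absolute amounts per egg were not measured.

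**Figure D4:**
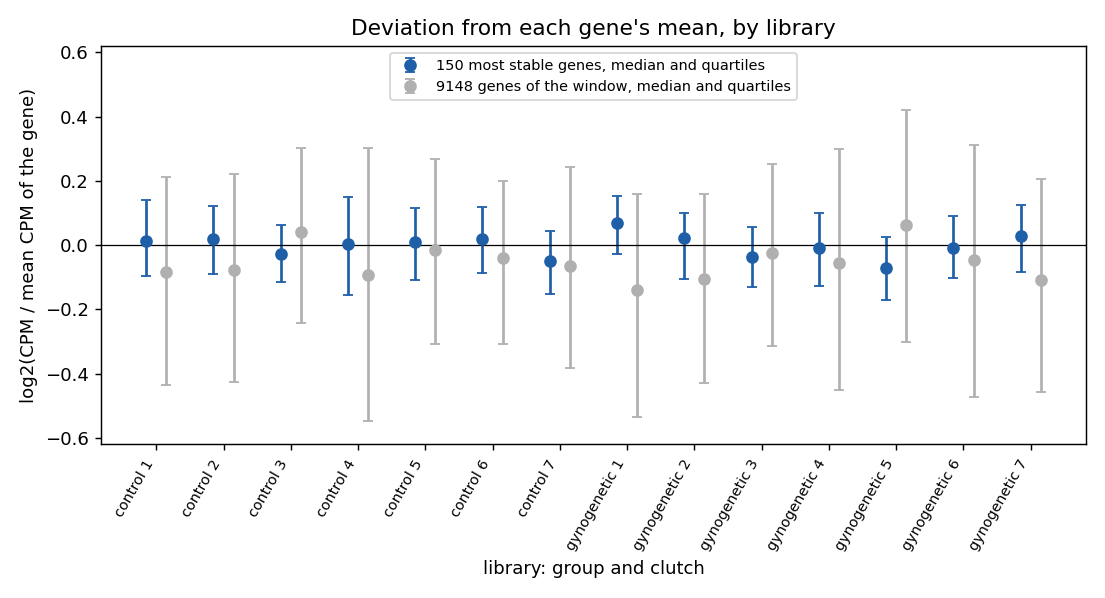
Median (point) and quartiles (bars) of log2(CPM / mean CPM of the gene) in each library, for the 150 stable genes (blue) and all 9148 window genes (grey). The blue medians stay between -0.07 and 0.07, and the blue and grey medians part most in gynogenetic 1.

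Because the set was chosen on all libraries, the choice was repeated on 6 clutches and read in the clutch left out. Of the genes chosen so, 105 to 114 were in the set. In the libraries of the clutch left out, they lay a median of 0.15 to 0.20 on the log2 scale, or 1.11-fold to 1.15-fold, from the mean of the other 12 libraries. The window lay 0.30 to 0.44, or 1.23-fold to 1.35-fold, from it. Both left-out libraries were within 20% of that mean for 46.7% (clutch 4) to 66.7% (clutch 6) of the chosen genes, against 17.1 to 28.0% of window genes. The chosen genes were nearer to their mean than the window in each of the 14 libraries, and clutch 4 was the least well predicted for both. The window was not matched to the chosen genes by level. Its median CV fell from 38.8% between 10 and 30 CPM to 20.8% between 200 and 300 CPM. The part of the difference that goes with level was not tested.

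**Figure D5:**
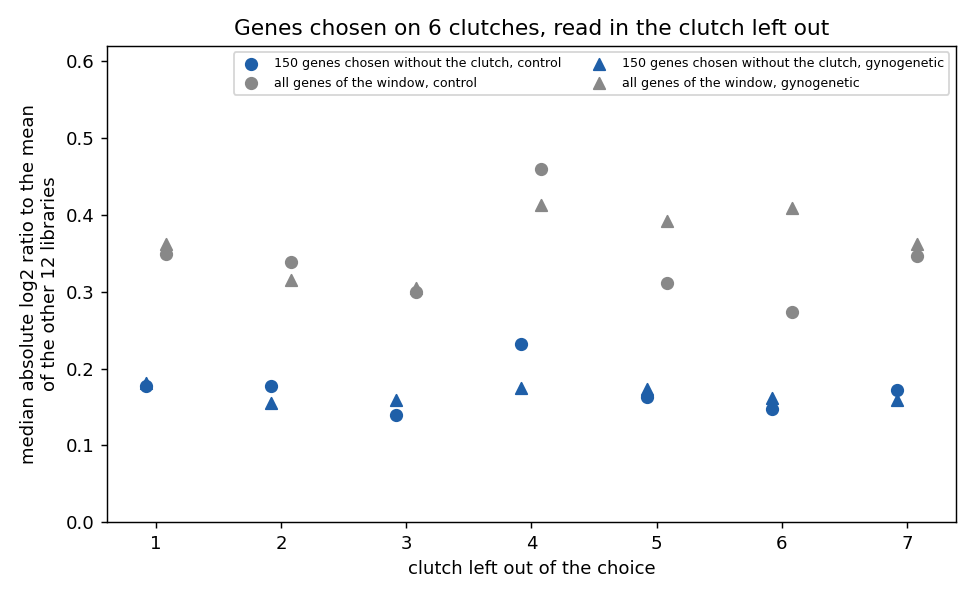
Median absolute log2 ratio of CPM in a left-out library to the mean of the other 12 libraries, by clutch left out, for the 150 genes chosen without that clutch (blue) and for all window genes (grey), control as circles and gynogenetic as triangles. All blue symbols lie below all grey ones, and control 4 is the highest of each colour.

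The choice was also made in 1 treatment and read in the other, where the clutches are shared. The 150 genes of lowest CV in control eggs (median 9.03%) had a median CV of 15.3% in gynogenetic eggs, against 32.6% in the window, and 145 of them lay below the window median. The 150 genes of lowest CV in gynogenetic eggs (median 9.38%) had a median CV of 14.6% in control eggs, against 30.1%, and 149 lay below the window median. The CV thus rose from the libraries of the choice to the others in both directions. The window was again not matched to the chosen genes by level. Of the 150 genes chosen in 1 treatment, 33 were also among the 150 lowest of the other (22% of each list). Within the set itself, the CV had a median of 10.8% in control eggs and 10.7% in gynogenetic eggs, with 68 genes steadier in control eggs and 82 in gynogenetic eggs.

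Over 17 other ways to make the choice, which changed the scaling, the measure of spread, the CPM limits or the libraries, 15 of the 150 genes were always kept. The 15 included 9 of the 10 steadiest genes, ENSOMYG00000063473 being the exception. With each clutch left out in turn, 71 genes were always kept.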

How the data were processed

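Counts were analysed as deposited by the authors, whole-number read counts per gene in 14 libraries. Per the methods and processing notes, reads were checked with FastQC 0.11.9, aligned to OmykA_1.1 with STAR 2.7.5c and counted with HTSeq 1.99.2 on an Ensembl annotation. The strand setting was not given in the sources used here. Summary lines (reads in no feature, 24.7 to 31.5% of uniquely mapped reads) were left out. CPM used the total of gene lines. Sums of squares used log2(CPM + 1). Detected genes had a mean DESeq2-normalised count above 1. Treatment, and clutch with treatment as covariate, were tested with edgeR 4.0.16 (quasi-likelihood, TMM, R 4.3.3) with Benjamini-Hochberg adjustment over all detected genes and checked on simulated data. DESeq2 1.42.0 was an alternative. Other alternatives changed scaling, filter, measure of spread, CPM limits and libraries, and halved counts were added after seeing the data.

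Same-numbered libraries share a female per the series design, and deviated together in all 7 pairs over window genes (r of 0.637 or more), so the numbers were taken to pair the samples. No source says that the eggs of a pool or the libraries were prepared apart, so p-values measure the spread between these libraries.

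The named genes were ranks 1 to 10, the 3 genes on each side of the threshold, the members of highest and lowest mean, the 5 of lowest p in each test, members on a product-name list and the reference genes. The members and lists were chosen with earlier results of these data known. No sequence or coordinate of a member is printed, since Ensembl identifiers could not be matched to the RefSeq table. For sf3a1 and fbxw11a, RefSeq positions reached through NCBI gene IDs differed from those in the study's lists (another chromosome for fbxw11a). An item of the reference gene list is not reported here.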

Additional observations from a re-analysis of the deposited data

Results flagged for a closer look

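ENSOMYG00000009649, the last gene of the set by CV, had 112 CPM in gynogenetic 5, far below the next gynogenetic library at 156 CPM, by Dixon's criterion for the gap to the nearest of 7 values. Clutch 5 was also its lowest clutch by mean, but that mean includes this library. Control 5 had 149 CPM, above the lowest control library, control 4, at 135.5 CPM. Over all stable genes, 13 of 300 such tests (4.33%) were positive, where chance gives about 1 in 20.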

How the results depend on the processing

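Of the 150 stable genes, 93 were kept with TMM, 82 with DESeq2 size factors, 59 with control libraries only, 76 with gynogenetic libraries only, 61 with the median absolute deviation over the median, 94 with a window of 10 to 1000 CPM (56 of the genes chosen then were above 300 CPM) and 105 to 114 with 1 clutch left out. The standard deviation of log2(CPM + 1) kept 139, removal of counting error 149, and a lower limit of 30 CPM 146. The median CV of the set was 13.6% with TMM, 14.02% with DESeq2 size factors, and 10.9 to 11.3% with 1 clutch left out.

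Between treatments, 57 genes were called without and 1557 with the replicate block, 1820 with the block on halved counts and 245 by DESeq2. With 1 clutch left out, 4 to 51 genes were called (4 without clutch 2). With the block they were 1415, 1748, 1236, 1212, 1340, 1508 and 1739 without clutches 1 to 7 in that order. Stable genes were 0 in each. Filters gave 62 and 65 genes. Among clutches, 11869 to 14333 genes and 0 to 1 stable genes were called with 1 clutch left out (1 without replicate 4 and 1 without replicate 6), and 13 stable genes by DESeq2. The cause of these changes was not tested. The gynogenetic mean was the higher one for 76 stable genes on CPM, 54 with TMM and 55 with DESeq2 size factors, both chosen after seeing the data, and the median log2 ratio of the set turned from 0.0015 to -0.03 and -0.02. The block changed no call of a stable gene.

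Every stable gene had at least 592 counts in each library. Counting error in steps of 2 took a larger part of the spread in the lowest gene, ENSOMYG00000008313 (a counting CV of 5.07% beside a CV of 11.2%), and counts cover counting error only. The limits are the 7 clutches, 1 library of pooled eggs per clutch and treatment, and a scale relative to the total count.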
